A study of Mus musculus with 6 samples.

Results

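The mouse Hox genes are 39 genes in 4 clusters that encode homeodomain transcription factors. They were taken here as every gene name of the deposited table made of Hox, a cluster letter from a to d and a paralogue number. All 39 were found among 19340 gene names, 38 could be followed securely in all 6 libraries, and 37 reached 1 CPM (library-scaled counts, as a rate over the whole library) in at least 1 library and were analysed. Hoxb13 had no row in the library with BMP4 and FGF4 and between 5 and 8 counts in each of the other 5. Hoxc12 stayed just under the limit, at 0.9502 CPM at 0 h. Of the 37, 15 belong to paralogue groups 1 to 5 (called anterior below), 12 to groups 6 to 9 (trunk) and 10 to groups 10 to 13 (posterior).

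The study asked how growth factors affect the state of primary mesoderm progenitor cells from the mouse tailbud. Wild-type C57BL/6 progenitors were grown in serum-containing medium on mitotically blocked mouse embryonic fibroblasts, the feeder cells, and all 6 libraries share that setting as far as the labels tell. One library was made per condition. The conditions were untreated cells at 0 h and at 96 h, rhBMP4 for 5 h, rhBMP4 for 11 h, rhBMP4 with rhFGF8 for 5 h, and rhBMP4 with rhFGF4 for 11 h. Growth factors (recombinant proteins) were added after 96 h, so those cells are labelled 101 h (5 h) and 107 h (11 h) in culture, with no untreated library of the same age. RNA of feeder cells can be part of each library, and whether feeder RNA was kept out is not given in the sources used here.

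Hox genes give cells their position along the head-to-tail axis. In the vertebrate embryo the genes of a cluster are switched on in the order in which they lie, from group 1 toward group 13, and in the elongating tailbud the higher groups come on later and mark more posterior levels. CDX proteins, WNT and FGF signals, retinoic acid and GDF11 are known inputs to this sequence, and Polycomb proteins hold silent Hox genes in check. In the GRCm38 (mm10) assembly the Hoxa cluster lies on chromosome 6, Hoxb on chromosome 11 (96194316 to 96368256), Hoxc on chromosome 15 (102921103 to 103036852) and Hoxd on chromosome 2 (74668310 to 74765142).

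Bases upstream of 3 Hox start sites are shown because these genes behaved differently below: Hoxd11 was among the most reduced genes after culture, Hoxb1 was the most reduced anterior gene, and Hoxb8 was not reduced. Each run holds the 250 bases before a RefSeq start site (GRCm38.p6), 5′ to 3′ on the gene's strand, which is the plus strand in all 3. Capitals mark matches to TTTATNG, a CDX-type motif, or to TGATNNAT, a PBX-HOX motif, on either strand. The windows are chr2:74682073-74682322 (Hoxd11), chr11:96365508-96365757 (Hoxb1) and chr11:96281655-96281904 (Hoxb8).
Hoxd11: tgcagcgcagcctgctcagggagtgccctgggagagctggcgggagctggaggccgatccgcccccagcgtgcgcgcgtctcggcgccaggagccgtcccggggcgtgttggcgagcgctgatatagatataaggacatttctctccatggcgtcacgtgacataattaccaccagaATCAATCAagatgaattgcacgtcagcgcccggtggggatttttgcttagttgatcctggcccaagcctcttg
Hoxb1: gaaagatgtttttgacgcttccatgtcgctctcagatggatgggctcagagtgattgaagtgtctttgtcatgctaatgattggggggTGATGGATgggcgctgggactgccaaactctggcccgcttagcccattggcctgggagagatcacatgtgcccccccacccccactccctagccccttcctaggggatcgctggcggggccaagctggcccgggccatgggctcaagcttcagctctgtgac
Hoxb8: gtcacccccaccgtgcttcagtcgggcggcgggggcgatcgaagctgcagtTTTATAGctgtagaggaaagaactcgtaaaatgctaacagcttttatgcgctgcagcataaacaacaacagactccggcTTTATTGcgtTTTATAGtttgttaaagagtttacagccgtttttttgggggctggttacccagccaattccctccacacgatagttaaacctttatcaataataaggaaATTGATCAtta
The Hoxb8 window holds 3 matches to TTTATNG, which start 199, 120 and 110 bases before the start site. Windows were on hand for 22 Hox genes (24 windows), and 2 of the 24 hold TTTATNG, in Hoxb8 and Hoxd4. Over all 32851 windows of that length the share is 9.81%. TGATNNAT was in 4 of the 24 Hox windows, in Hoxd11, Hoxb1, Hoxb8 and Hoxa2, beside 7.68% of all windows. A match describes letters only and is no evidence of binding.

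The libraries held between 179196459 and 272743104 counts, so that 3 counts, the limit used for a count of 0, correspond to 0.0112 to 0.0180 CPM. The tailbud markers fit the label at 0 h: 9 analysed marker genes of 12, among them T, Tbx6 and Msgn1, summed to 414 CPM. That sum was 33.0 CPM at 96 h, 385 with BMP4 for 5 h, 216 with BMP4 for 11 h, 380 with BMP4 and FGF8, and 61.4 with BMP4 and FGF4. Of 13768 genes analysed, 94.4% in the BMP4 5 h library and 94.4% in the BMP4 with FGF8 library were within 1.2-fold of the 0 h library, although both are labelled 101 h. Whether these labels are right was not tested, and every comparison with a 5 h library below is with the library so labelled. Summed red blood cell markers (14 of 15 analysed) were at 28.5, 30.8 and 160 CPM at 0 h, with BMP4 for 5 h and with BMP4 and FGF8. They were at 5339, 5003 and 3279 CPM at 96 h, with BMP4 for 11 h and with BMP4 and FGF4. Summed fibroblast markers (15 of 15) ranged from 777 CPM at 0 h to 2067 CPM with BMP4 and FGF4. Of these 15 genes, 10 were at least 2-fold higher at 96 h than at 0 h and none lower, beside 3.73% and 2.24% of all genes. Endothelial markers (12 of 12) summed to 45.1 to 188 CPM and lateral plate markers (11 of 12) to 59.5 to 193 CPM, both lowest with BMP4 for 5 h. Neural tube markers (9 of 10) stayed between 114 and 127 CPM. The part of these marker genes in the Hox differences below was not tested.

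Posterior Hox genes were far lower after 96 h of culture than at 0 h, while several central Hoxb and Hoxc genes held their level. Of the 37 Hox genes, 20 were at least 2-fold lower at 96 h and none was at least 2-fold higher, against 2.24% lower and 3.73% higher among all genes analysed. The split by position was 5 of 15 anterior, 6 of 12 trunk and 9 of 10 posterior genes. Without Hoxc13, which passed the level limit in the 0 h library alone, 19 of 36 Hox genes and 8 of 9 posterior genes were lower. Median log2 ratios (after adding 0.5 CPM) were -0.65, -0.95 and -2.43 in these 3 sets, beside -0.00 over all genes. A gene counts as lower or higher where that ratio reaches 2-fold and 1 lies outside the 95% interval of the ratio taken without added CPM, an exact Clopper-Pearson interval from the counts. With 1 library per condition no ratio between 2 libraries has a replicate check or a p-value. Intervals cover counting error only, and counting each mate of a read pair separately would make them too narrow. In bulk RNA, fewer cells of a type and less RNA per cell cannot be told apart.

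Hoxd11 (chromosome 2, 74679557 to 74687016), whose product patterns the lumbosacral spine, limb and kidney, had 63.5 CPM at 0 h. It was at 3.85 CPM at 96 h, 50.8 with BMP4 for 5 h, 52.7 with BMP4 and FGF8 for 5 h, 25.2 with BMP4 for 11 h and 5.85 with BMP4 and FGF4 for 11 h. The 96 h level was 16.5-fold lower than at 0 h (interval 15.5 to 17.6). Hoxd11 was thus high in 3 libraries, low in 2 and intermediate with BMP4 for 11 h, an order shared by 9 of the 10 posterior genes. The exception was Hoxa13, and the order held in 27 of the 37 Hox genes beside 10.2% of all genes analysed. The order was read from these same libraries. Growth factor columns were matched to gene names by a method that favours values between the 2 untreated libraries.

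Hoxc10 (chromosome 15, 102966796 to 102971893), a gene of lumbar level identity, stood at 103.9 CPM at 0 h and 10.96 CPM at 96 h. It was at 92.3 CPM with BMP4 for 5 h, 93.9 with BMP4 and FGF8, 49.2 with BMP4 for 11 h and 12.5 with BMP4 and FGF4. The reduction over 96 h was 9.49-fold (9.13 to 9.86). Hoxa10 (chromosome 6, 52231197 to 52240854) had 60.2 CPM at 0 h, 10.2 at 96 h, 52.8 and 54.5 in the BMP4 and BMP4 with FGF8 libraries of 5 h, 36.3 with BMP4 for 11 h and 11.1 with BMP4 and FGF4. Hoxd10 followed, from 38.3 CPM at 0 h to 7.31 at 96 h, 5.24-fold lower (4.99 to 5.50). All 3 group 10 genes were lower, with log2 ratios from -3.19 to -2.31.

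In group 11, Hoxc11 was at 10.0 CPM at 0 h and 0.621 at 96 h, 16.2-fold lower (13.8 to 19.0), and Hoxa11 at 34.6 and 6.35 CPM. The product of Hoxa11 acts with that of Hoxd11 in forearm and kidney development. Hoxd12 (chromosome 2, 74675013 to 74677705) was at 8.52 CPM at 0 h and 0.498 at 96 h, 17.1-fold lower (14.4 to 20.6). The group 13 genes end each cluster and mark the most caudal tissues. Among them Hoxd13 was at 23.2 and 6.44 CPM, while Hoxa13 was low throughout, at 1.43 CPM at 0 h and 1.16 CPM at 96 h, and was the posterior gene not called. Hoxc13, at 1.14 and 0.0669 CPM, is the gene whose difference was built into the level limit. Hoxc12, outside the analysed set, had 206 counts at 0 h and 2 counts at 96 h.

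**Figure D1:**
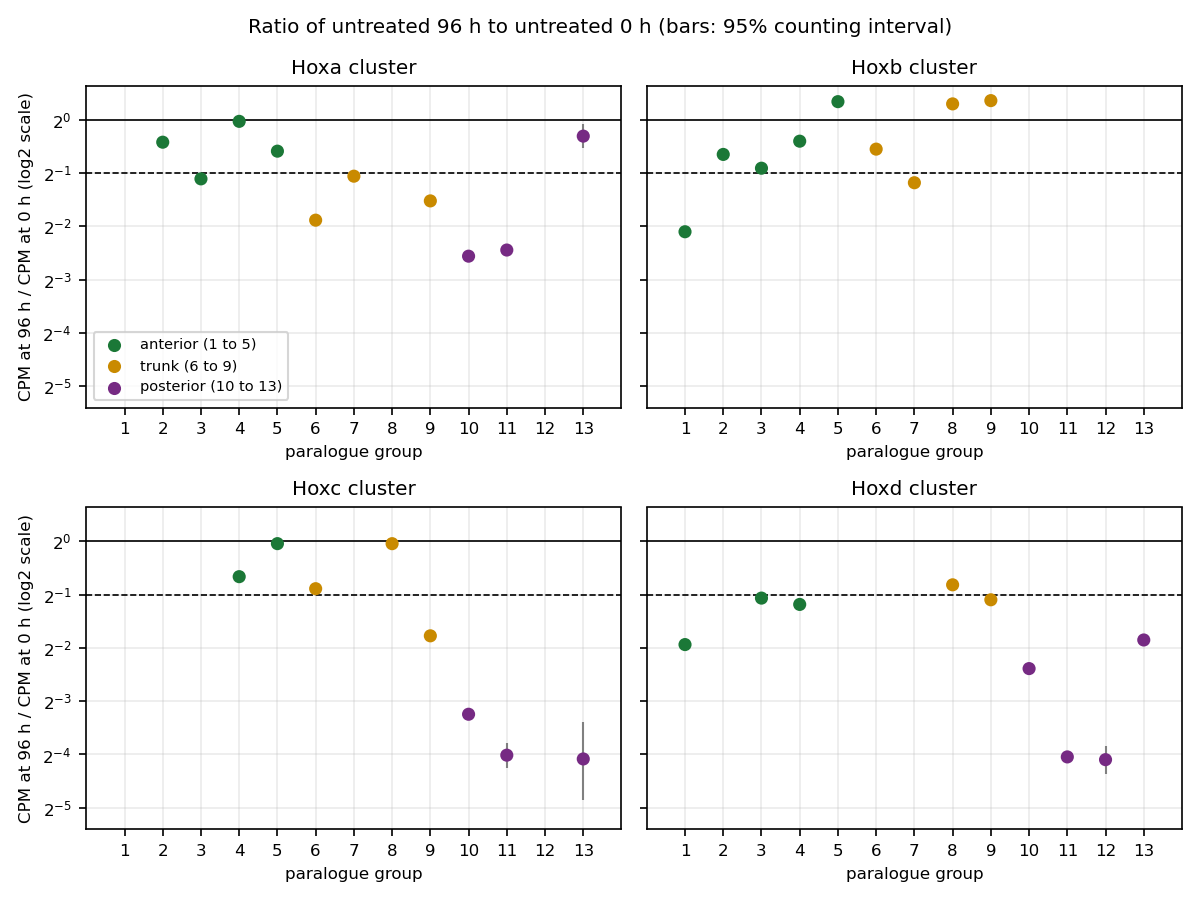
Ratio of CPM at 96 h to CPM at 0 h (log2 axis, no CPM added) for 36 analysed Hox genes by paralogue group (x axis), 1 panel per cluster. Bars are 95% counting intervals, often smaller than the points. The solid line is no difference and the dashed line 2-fold lower. Hoxd11, Hoxd12, Hoxc11 and Hoxc13 (which passed the level limit at 0 h alone) lie lowest, while Hoxb5, Hoxb8 and Hoxb9 lie above the solid line.

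The 12 trunk genes, which pattern thoracic levels, were divided. Hoxa9 (chromosome 6, 52223100 to 52231089) was at 55.9 CPM at 0 h and 19.5 at 96 h, and Hoxc9 at 33.0 and 9.66 CPM, 3.42-fold lower (3.27 to 3.58). Hoxa6, at 12.8 and 3.47 CPM, had the lowest log2 ratio of the trunk set, -1.74. The 4 trunk genes of the Hoxb cluster were split, with 2 below their 0 h level and the other two above it. Hoxb7 was at 32.9 and 14.5 CPM, with a log2 ratio of -1.15, and was called lower. Hoxb6 was at 20.3 and 13.9 CPM. Hoxb9 (chromosome 11, 96271457 to 96276595) was at 82.3 CPM at 0 h and 105.5 at 96 h, a ratio of 1.28 (1.26 to 1.31). Hoxb8 was at 25.9 and 31.9 CPM, a ratio of 1.23 (1.19 to 1.27). Hoxc8, at 27.2 and 26.4 CPM, had a ratio of 0.969 (0.936 to 1.00). Hoxb9 kept a narrow range in all 6 libraries, from 82.1 CPM with BMP4 for 5 h to 110.3 CPM with BMP4 for 11 h.

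Among anterior genes, which pattern hindbrain and neck levels, the 2 most reduced were of group 1. Hoxb1 (chromosome 11, 96365752 to 96368256), an early gene of the primitive streak and later of the hindbrain, was at 43.1 CPM at 0 h and 10.0 at 96 h, 4.29-fold lower (4.11 to 4.48). It was at 43.1 CPM with BMP4 for 5 h, 39.98 with BMP4 and FGF8, 21.9 with BMP4 for 11 h and 11.03 with BMP4 and FGF4. The order of libraries described for Hoxd11 was found in 11 of 15 anterior, 7 of 12 trunk and 9 of 10 posterior genes. Hoxd1 was at 17.0 and 4.44 CPM, 3.83-fold lower (3.59 to 4.09). Hoxa3, Hoxd3 and Hoxd4 were the other anterior genes called, at 2.16-fold, 2.09-fold and 2.27-fold lower. Genes of groups 4 and 5 held near their 0 h level in places, with Hoxa4 at 7.01 and 6.87 CPM, Hoxc5 at 12.8 and 12.4 CPM and Hoxb5 at 9.59 and 12.1 CPM.

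Read along the clusters, the log2 ratio of 96 h to 0 h fell with paralogue number in 3 of the 4. Spearman's rank correlation across genes was -0.37 in Hoxa (11 genes), -0.74 in Hoxc (8) and -0.50 in Hoxd (9), and was 0.63 in Hoxb (9), whose genes end at group 9 here. Over all 37 it was -0.38. Genes of a cluster are neighbours measured in the same libraries, so the correlation is given as a description with no p-value. Genes of the same group could differ. In group 9, Hoxb9 had a log2 ratio of 0.36 while Hoxc9 had -1.72, and in group 13 Hoxa13 had -0.22 while Hoxd13 had -1.77.

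**Figure D2:**
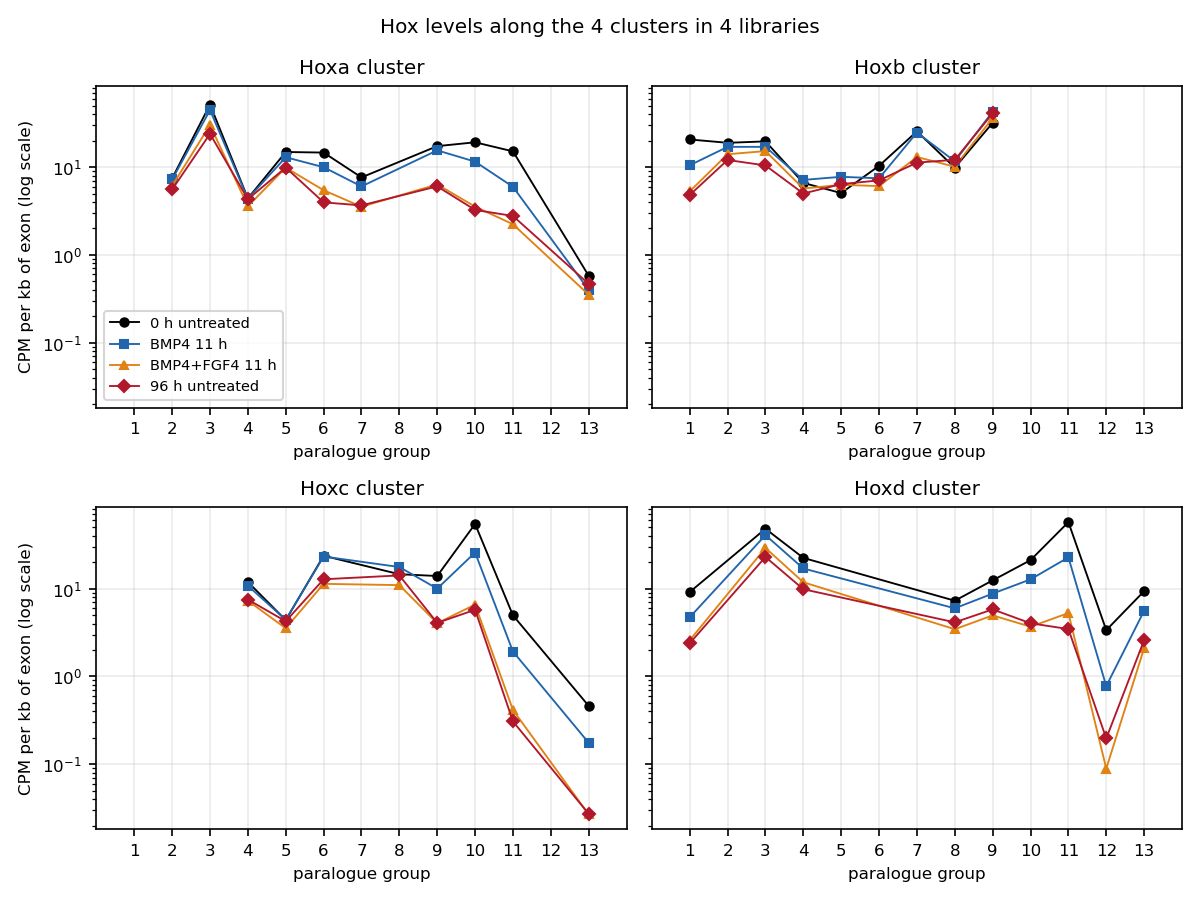
Level (CPM per kb of exon, log axis) along each cluster by paralogue group in 4 of the 6 libraries, 1 point per gene and library. In Hoxd the 96 h and BMP4 with FGF4 lines lie below the 0 h line from group 1 on (Hoxd1 at 9.13 CPM per kb at 0 h and 2.38 at 96 h) and furthest below it at groups 11 and 12. In Hoxc they lie furthest below it at groups 10, 11 and 13, whereas in Hoxb the 4 lines run close together at groups 8 and 9.

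Levels of different genes were compared per kilobase of annotated exon. At 0 h the highest were Hoxd11 with 57.2 CPM per kb, Hoxc10 with 54.5 and Hoxa3 with 51.6. This ranking depends on annotated exon length, which is 1111 bases in Hoxd11 and 2591 in Hoxa3. By CPM with no length scaling, Hoxd3 with 155.8, Hoxa3 with 133.7 and Hoxc10 with 103.9 were highest at 0 h, and Hoxd11 had 63.5. At 96 h they were Hoxb9 with 41.0 CPM per kb, Hoxa3 with 23.9 and Hoxd3 with 22.9. The summed Hox level was 630 CPM per kb at 0 h and 285 at 96 h. Groups 10 to 13 made up 29.5% of it at 0 h, 27.2% with BMP4 for 5 h, 27.7% with BMP4 and FGF8, 18.1% with BMP4 for 11 h, 8.03% at 96 h and 8.18% with BMP4 and FGF4. The Hoxb share went the other way, from 23.6% at 0 h to 38.7% at 96 h. Per kb of coding sequence the posterior shares were lower throughout, at 22.8% at 0 h and 6.10% at 96 h, with 6.08% in the BMP4 with FGF4 library, so that the 2 lowest libraries changed places between the scalings.

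**Figure D3:**
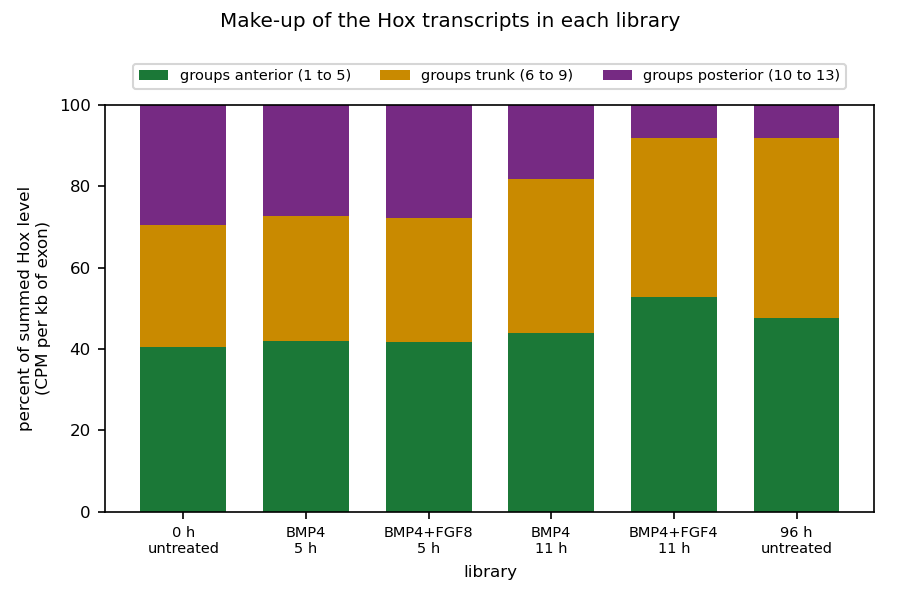
Share of the summed Hox level (CPM per kb of exon, percent) held by anterior, trunk and posterior paralogue groups, 1 stacked bar per library. Posterior genes hold 29.5% at 0 h and 8.03% at 96 h, and 18.1% against 8.18% in the 11 h libraries without and with FGF4.

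Levels with BMP4 added after the 96 h culture were read against the untreated 96 h library. In the library labelled BMP4 for 5 h, 17 of 37 Hox genes were at least 2-fold higher and none lower, against 2.16% higher and 3.15% lower of all genes. They were 3 anterior, 5 trunk and 9 posterior genes, or 8 posterior genes without Hoxc13. Hoxd11 was 13.2-fold higher (12.4 to 14.1), Hoxc10 8.42-fold (8.10 to 8.75) and Hoxb1 4.30-fold (4.12 to 4.49). Against 0 h no Hox gene of this library was 2-fold different in either direction, beside 0.0944% lower and 0.341% higher of all genes. Within 1.2-fold of 0 h were 30 of 37 Hox genes (81.1%), beside 94.4% of all genes. By position these were 14 of 15 anterior, 11 of 12 trunk and 5 of 10 posterior genes. The largest Hox difference from 0 h was Hoxb6, at 11.6 against 20.3 CPM. All 10 analysed posterior genes were slightly below 0 h, with a median log2 ratio of -0.27, beside 7329 of all 13768 genes below it. The 96 h and 0 h comparisons share libraries, so their values are not independent.

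With BMP4 for 11 h, 13 of 37 Hox genes were at least 2-fold above the 96 h library and none was as far below it, against 2.30% and 0.291% of all genes. They were 1 anterior gene (Hoxb1), 4 trunk genes and 8 posterior genes. Hoxd11 was 6.55-fold higher (6.12 to 7.02), Hoxc11 6.25-fold (5.27 to 7.46), Hoxc10 4.49-fold (4.30 to 4.68) and Hoxa10 3.55-fold (3.39 to 3.72). In the trunk set Hoxa9 was 2.57-fold and Hoxb7 2.20-fold higher. The BMP4 11 h level lay between the 0 h and 96 h levels in 31 of 37 Hox genes (83.8%, beside 39.5% of all genes). The matching of growth factor columns to gene names favours such values, so these shares are not independent of it. Relative to 0 h, 5 posterior genes (Hoxa11, Hoxc10, Hoxc11, Hoxd11 and Hoxd12) were at least 2-fold lower and no Hox gene was 2-fold higher, against 0.450% lower and 3.30% higher of all genes. The red blood cell marker sum of this library, 5003 CPM, was near that of the 96 h library, while its tailbud sum of 216 CPM lay between those of 0 h and 96 h.

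**Figure D4:**
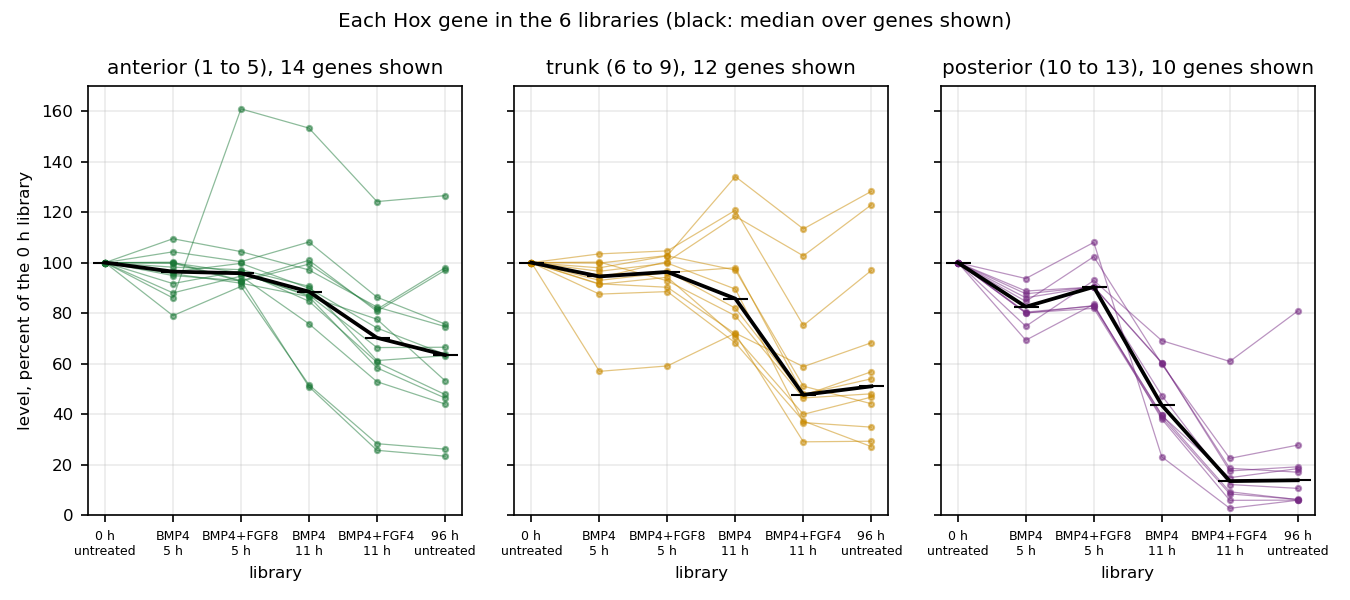
Level of 36 analysed Hox genes as a percent of its 0 h level (y axis) in the 6 libraries (x axis, ordered for display and not by time), split by position. Coloured lines join the values of 1 gene and black marks are medians over genes. Posterior medians are 82.5% and 90.4% in the 5 h libraries, 43.5% with BMP4 for 11 h, 13.4% with BMP4 and FGF4 and 13.8% at 96 h.

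Between 5 h and 11 h of BMP4 alone, Hoxd12 was 4.07-fold lower (3.61 to 4.59), at 7.99 and 1.96 CPM, and Hoxa11 2.04-fold lower (1.94 to 2.14), at 27.8 and 13.6 CPM. These 2 were the only Hox genes called, against 0.305% lower and 2.45% higher of all genes, and Hoxc11 and Hoxd11, at plain ratios of 0.483 and 0.496, were just outside the rule because of the added CPM. Posterior genes had a median log2 ratio of -0.72, trunk genes -0.06 and anterior genes -0.14. The Hoxb genes were divided, with 4 of 9 below their 5 h level. Hoxb1 was at 0.508 of it and Hoxb5 at 1.78, with Hoxb9 at a ratio of 1.34 (1.32 to 1.37). Hoxc8, at 28.2 and 32.9 CPM, and Hoxc6, at 34.8 and 36.7 CPM, were also higher at 11 h by their plain ratios.

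The 4 BMP4 libraries allow a test with 2 libraries at each time, 5 h against 11 h, although the libraries of one time differ in added FGF. In edgeR's quasi-likelihood test with Benjamini-Hochberg adjustment over 16601 genes, none of 38 Hox genes passed an adjusted p of 0.05. Of all genes 0.476% passed as lower and 2.63% as higher. DESeq2 called 7 Hox genes lower, against 4.74% lower and 9.21% higher of all genes. With added FGF (yes or no) as a second term, a fit chosen after seeing the data, edgeR called 1 Hox gene lower, against 0.687% lower and 3.23% higher of all genes. That gene was Hoxb1, with a log2 difference of -1.42 (SE 0.21) and an adjusted p of 0.031. The second term treats FGF8 at 5 h and FGF4 at 11 h as 1 effect. Median Hox log2 ratios over BMP4 alone were 0.04 with FGF8 and -0.72 with FGF4. In the model with time alone Hoxb1 had an adjusted p of 0.082 by edgeR, with a log2 difference of -1.34 (SE 0.31). Hoxd12 had the largest difference, -3.00 (SE 0.88), with an adjusted p of 0.12. Without the BMP4 11 h library, which leaves BMP4 with FGF4 as the only 11 h library, 31 Hox genes were lower and 1 higher, against 18.0% lower and 20.7% higher of all genes. Without the BMP4 with FGF4 library 19 were lower and 4 higher, against 7.95% and 14.2% of all genes.

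FGF4 added to BMP4 went with lower Hox levels at 11 h, most of all in posterior genes. All 37 analysed Hox genes were below their BMP4 11 h level, beside 7585 of all 13768 genes. The smallest margins were in Hoxa13 and Hoxb3, with log2 ratios of -0.12 and -0.16. In other settings these came as near to no difference as -0.025 and -0.015, without a change of sign. At least 2-fold lower were 11 Hox genes, against 0.603% lower and 1.18% higher of all genes. The 11 were 8 posterior and 3 trunk genes (Hoxa9, Hoxc6 and Hoxc9), with no anterior gene. Hoxd12 was at 0.226 against 1.96 CPM, 8.70-fold lower (6.41 to 12.04). Hoxc11 was 4.63-fold lower (3.92 to 5.50), Hoxd11 4.31-fold (4.04 to 4.60), Hoxc10 3.92-fold (3.75 to 4.10) and Hoxd10 3.46-fold (3.25 to 3.68). Median log2 ratios were -1.69 for posterior, -0.78 for trunk and -0.32 for anterior genes, beside -0.03 over all genes. The rank correlation with paralogue number was -0.53 across the 37 genes, and was 0.30 in Hoxb, where no gene was called.

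The library with BMP4 and FGF4 was close to the untreated 96 h library. No Hox gene was called between them, against 0.102% lower and 1.28% higher of all genes, and 27 of 37 were within 1.2-fold, or 73.0% beside 71.4% of all genes. Log2 ratios ranged from -0.46 in Hoxd12 to 0.55 in Hoxd11. Hoxd12, at 0.226 against 0.498 CPM, was 2.21-fold lower by its plain ratio (1.58 to 3.13) and was kept from a call by the added 0.5 CPM. Among the anterior genes Hoxb3 stood highest over 96 h, at 53.6 against 36.8 CPM. The summed tailbud markers of this library were 61.4 CPM against 216 CPM with BMP4 alone, and fibroblast markers 2067 against 1086 CPM. The part of these markers in the Hox difference was not tested.

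With FGF8 added to BMP4 for 5 h, all 37 Hox genes were within 2-fold of BMP4 alone. Few genes of any kind differed there, with 0.0218% lower and 0.174% higher of all genes. Median log2 ratios were -0.01 for anterior, 0.04 for trunk and 0.06 for posterior genes. The widest difference was Hoxb5 (chromosome 11, 96303336 to 96306121), at 15.4 CPM with FGF8 and 8.24 CPM without, a ratio of 1.87 (1.77 to 1.98). Hoxd13, at 23.8 and 19.7 CPM, had a ratio of 1.21 (1.16 to 1.26). Hoxa13, at 1.33 and 1.07 CPM, had a ratio of 1.24 (1.04 to 1.48). Against the 96 h library, 17 Hox genes were at least 2-fold higher with BMP4 and FGF8 and none lower, beside 2.35% and 3.05% of all genes. Without Hoxc13, 16 of 36 were higher. Within 1.2-fold of 0 h were 32 of 37 Hox genes (86.5%) with BMP4 and FGF8, beside 94.4% of all genes. Neither 5 h library has a replicate.

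Hoxb5 and Hoxb6 varied unlike their neighbours. Hoxb5 was at 9.59 CPM at 0 h, 8.24 with BMP4 for 5 h, 15.4 with BMP4 and FGF8, 12.1 at 96 h, 14.7 with BMP4 for 11 h and 11.9 with BMP4 and FGF4. Hoxb6 was at 20.3 CPM at 0 h and between 11.6 and 14.6 CPM in the other 5 libraries. The 2 lie next to each other in the table, whose growth factor columns had to be matched to names, and no other Hox gene differed as much between the 5 h libraries as Hoxb5. Neither gene was called in any comparison, so the counts above do not rest on them.

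Known regulators of Hox genes were read in the same libraries. CDX2 and CDX4 are homeodomain factors that activate trunk and posterior Hox genes in the embryo. Cdx2 was at 59.0 CPM at 0 h, 4.21 at 96 h, 52.0 with BMP4 for 5 h, 18.3 with BMP4 for 11 h and 5.80 with BMP4 and FGF4. Cdx4 was at 61.2, 2.63, 51.4, 23.0 and 5.22 CPM in the same libraries. Cdx1 was at 4.43, 5.32, 4.61, 5.29 and 6.57 CPM. The 3 genes could not be placed securely in the BMP4 with FGF8 library and are not analysed there. Over the libraries in which they were placed, Cdx2 and Cdx4 had the order seen in 27 of 37 Hox genes, and Cdx1 did not.

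Of 17 analysed inducers and modulators of Hox expression, 5 were lower and 2 higher at 96 h than at 0 h, beside 2.24% lower and 3.73% higher of all genes. Cyp26a1, whose product degrades retinoic acid in the tailbud, was at 35.9 and 1.72 CPM, and the ligand genes Wnt3a and Wnt5a were at 14.7 and 2.44 and at 120.0 and 27.3 CPM. Gata4 and Gata6, factors of heart and gut mesoderm, were higher, with log2 ratios of 3.55 and 2.71. Gdf11, which encodes a ligand that promotes the switch to posterior Hox genes, was at 24.2 CPM at 0 h, 8.35 at 96 h, 20.4 with BMP4 for 5 h, 13.98 with BMP4 for 11 h and 8.40 with BMP4 and FGF4, and was singled out after its values were seen. Fgf8 and Fgf4 were not among the securely placed genes.

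Genes that keep Hox chromatin silent or active were read in the same way. None of 20 Polycomb genes and none of 11 trithorax and H3K27 demethylase genes was 2-fold different between 96 h and 0 h. Of all genes 2.24% were lower and 3.73% higher, so short lists with no call are not particular to these genes. Median log2 ratios were 0.01 for the Polycomb list and -0.06 for the other. The most abundant were Rbbp4, at 243 and 215 CPM, and the chromatin remodeller gene Chd7, at 95.1 and 91.2 CPM. Of 10 HOX cofactor genes Pbx3 was higher, at 15.6 and 31.8 CPM, just past 2-fold, and none was lower. Jarid2, a Polycomb partner named after its values were seen, was at 172.6 CPM with BMP4 for 11 h and 85.6 CPM with FGF4 added. It was the only Polycomb gene called in that comparison, beside 0.603% lower and 1.18% higher of all genes.

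Genes inside and beside the clusters were lower too in places at 96 h, beside 2.24% lower and 3.73% higher of all genes. Of 4 analysed Hox noncoding RNAs, Hoxa11os, which lies antisense to Hoxa11, was at 37.3 CPM at 0 h and 4.93 at 96 h, and Hotair, from the Hoxc cluster, at 2.52 and 0.178 CPM. Both were also 2-fold lower with FGF4 added to BMP4 at 11 h, beside 0.603% lower and 1.18% higher of all genes. Of 10 analysed cluster neighbours, Evx1, a homeobox gene beyond Hoxa13, was at 24.9 and 3.36 CPM and Smug1, a DNA repair gene near Hoxc, at 28.6 and 12.4 CPM. The other 8 neighbours were not called. Among them Skap1, named after its values were seen, was at 1.06 and 0.420 CPM, 2.52-fold lower by its plain ratio (1.999 to 3.18).

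Some Hox exons overlap other annotated genes, and the strand setting of the counting is not given in the sources used here. Exons of 6 analysed Hox genes overlap another gene on the same strand, up to 68.6% of Hoxd3 and 45.1% of Hoxd4. Exons of 8 overlap one on the other strand, among them 63.9% of Hoxb3 and 24.8% of Hoxa11. Of the 25 genes with no such overlap, 13 were lower at 96 h than at 0 h, beside 20 of all 37.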

How the data were processed

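Total RNA of 6 libraries, 1 per condition, was prepared with a stranded kit, per the labels' protocols. The authors deposited raw read counts per gene. Tools listed in the submitters' processing notes, without roles, are STAR 2.4.0e, cutadapt, HTSeq and DESeq, with build mm10. How reads were assigned to strands and pairs is not given in the sources used here. The share of even numbers among values from 1 to 20 was 65.4% to 70.9%.

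The 4 growth factor columns hold more values (19415 to 19826) than the 19342 names. Names were sorted without regard to case and each column was aligned in order to the untreated columns. A gene was kept where the best row beat every other by a margin of 5 cost units in all 4 columns. Genes for which an exchange of nearby rows fitted better, beyond a limit of 2 cost units, were dropped, which left 16742 genes. Among Hox genes the largest gain from such an exchange was 0.639 units. Through the Hox genes each column sat at 1 constant offset, except that the BMP4 with FGF4 column shifted by 1 row after Hoxb13. On simulated columns of 19342 genes at least 99.7% of kept genes were right. The alignment favours values between the 2 untreated libraries.

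Counts were divided by TMM effective library sizes (edgeR 4.0.16, R 4.3.3) to give CPM. Genes reaching 1 CPM in any library (13768) were analysed. Log2 ratios were taken after adding 0.5 CPM, and gene models came from GENCODE vM21. edgeR's quasi-likelihood test and, as an alternative, DESeq2 1.42.0 compared 11 h with 5 h. Ratio calls were tested on simulated data. Alternatives are given in the closing section. Hox genes could be named individually and, from each other list, up to 5 genes with the largest called log2 ratio between 96 h and 0 h and a mean of at least 1 CPM, or else the most abundant member. Further comparisons (BMP4 with FGF4 or FGF8 over 96 h, and BMP4 11 h over 0 h) were added after seeing the data. The members and lists were chosen with earlier results of these data known. 1 Hox gene is counted in the totals and not reported individually here.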

Additional observations from a re-analysis of the deposited data

How the results depend on the processing

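Of 63 Hox gene calls in the 7 planned comparisons, none changed direction in any alternative that gave it a value. Of the 61 with a value in each of the 5 alternatives of scaling, added CPM and level limit, 50 kept their call in all 5. With 2 CPM added, BMP4 11 h over 96 h had 8 Hox genes higher and BMP4 11 h over 5 h had 1 lower, and the latter had 6 lower with library totals in place of TMM. Placing the columns on the 96 h or the 0 h column alone left only 17 or 19 Hox genes securely placed. Of the 63 calls 26 then had a value, and 25 kept their call, under either placement. Either way, among these 17 or 19 genes, 10 were lower at 96 h than at 0 h, and 3 were lower with FGF4. Over 96 h, 7 were higher with BMP4 for 5 h and 5 with BMP4 for 11 h, and 0 were lower between 5 h and 11 h. Shares of all genes called are not given for the settings of this paragraph. Its counts therefore show only how far the main Hox counts moved. Among genes that share no exon (chosen after seeing the data), 13 were lower at 96 h and 1 between 5 h and 11 h. Leaving out Hoxb5 and Hoxb6 (also chosen later) changed no count of calls. Without Hoxc13 (also chosen later), 19 were lower at 96 h and 16 higher with BMP4 for 5 h over 96 h.

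The rank correlation with paralogue number, taken over clusters together, kept its sign throughout. Hoxb alone had the opposite sign in several comparisons, such as 0.63 against -0.38 for 96 h over 0 h. Without Hoxb the joint value was -0.52 for 96 h over 0 h, 0.50 for BMP4 5 h over 96 h and -0.48 for 11 h over 5 h of BMP4. Without Hoxc these were -0.28, 0.28 and -0.20, and without Hoxd 0.25 and -0.17 for the last 2. It was 0.23 for BMP4 11 h over 96 h with 2 CPM added, and 0.28 for FGF8 over BMP4 alone without Hoxa. The posterior share of Hox RNA per kb of coding sequence was 22.8% (0 h), 6.10% (96 h), 21.0% (BMP4 5 h), 13.5% (BMP4 11 h), 21.5% (with FGF8) and 6.08% (with FGF4). With no length scaling it was 24.9%, 7.15%, 23.0%, 15.3%, 23.5% and 6.94%.

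In the test of 11 h against 5 h, DESeq2 called 7 Hox genes lower. Leaving out 1 library gave 0 to 31 lower and 0 to 4 higher, where a lone library is assumed to vary like the others. Over all genes the same fits gave 0 to 2997 lower and 26 to 3449 higher. With added FGF as a term, which sets the libraries with and without FGF apart at both times, 1 Hox gene was lower. No paired analysis was possible because each condition has 1 library. Counting intervals were narrow at these depths, and the lack of replicates is the limit.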
